A study of Mus musculus with 82 samples.

Results

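Fry, B3glct and Mtus2 are 3 protein-coding genes that lie in this order, from the telomere side inward, on the distal part of mouse chromosome 5. They were taken by symbol from the RefSeq annotation of GRCm38.p6, 3 of 21523 protein-coding genes on chromosomes 1 to 19 and X, and were chosen by the number of Adnp peaks inside them. That number and its density are therefore a description and were not tested. At least 1 Adnp peak lay inside each of them, and inside 20.7% of all protein-coding genes. Together they held 52 of the 15026 Adnp peaks and 0 of the 2047 HP1γ peaks in the lists.

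ChIP-seq, RNA-seq and ATAC-seq were made in embryonic stem cells of mice of a hybrid 129-C57BL/6 background, kept in 2i medium with LIF, and the labels describe 82 samples in 32 groups. The Adnp list comes from untreated cells with the genotype Adnp FlagAvi, in which Adnp carries a tag that can be biotinylated and pulled down on streptavidin (3 ChIP replicates, with 3 input libraries). The HP1γ list, which by its name holds peaks without the Adnp motif, comes from untreated cells with the genotypes Cbx3 FlagAvi, Adnp KO (3 replicates, 3 inputs) and Cbx3 FlagAvi alone (3 replicates, 3 inputs). Both lists are pooled over replicates, so no value below has an error between replicates. The names of all 2047 HP1γ peaks hold AdnpKO, while the series text ties the list to both genotypes. The HP1γ peaks may therefore have been called in cells without Adnp, and whether a given peak was also seen in cells with Adnp is not known here. Depth is unknown, because the lists hold no read counts. The intervals given cover counting error only, and neighbouring peaks are not independent. Expression data were not analysed here, so neither the cell type nor the activity of the genes could be checked.

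Adnp is a DNA-binding protein with zinc fingers and a homeodomain. With the nucleosome remodeller Chd4 and HP1 proteins it forms the ChAHP complex, which binds many sites with a short sequence motif and restrains transcription near them; many of its known sites in mouse lie in SINE repeats, short elements derived from small RNA genes, and its motif overlaps in part with that of the insulator protein CTCF. HP1γ, made from Cbx3, is a chromodomain protein best known for binding methylated histone H3. Fry encodes a very large scaffold protein that works with NDR kinases in cell shape and division. B3glct encodes a glucosyltransferase of the endoplasmic reticulum that adds glucose to O-linked fucose on thrombospondin repeats. Mtus2 encodes a microtubule-associated protein of plus ends and the relative of the tumour suppressor gene Mtus1.

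Sequence could be read only where a peak touched a promoter window of RefSeq (GRCm38.p6, 250 bases before to 50 after a listed start). All 3 genes matched the table, Mtus2 with 2 starts, and all run on the plus strand. Of 57 such windows between the lower end of Mtus2 and the upper end of Fry, 2 (3.51%) shared bases with an Adnp peak, and 0.974% of all 32851 windows did. The first is the window of B3glct at chr5:149677980-149678279, whose last 68 bases (233 to 300) lie in the first Adnp peak of the gene. The second holds a whole Adnp peak of 283 bases at chr5:149000919-149001201 (authors' score 12.2), at a start of the lncRNA gene Gm15411 between Mtus2 and B3glct. The window at the lower start of Mtus2, chr5:147957070-147957369, touched no peak and is shown for contrast. Capitals mark the word GCCCTCT, or its reverse complement AGAGGGC, a word chosen after the sequences were seen. The Gm15411 peak is printed on its minus strand and the other sequences on the plus strand.
B3glct: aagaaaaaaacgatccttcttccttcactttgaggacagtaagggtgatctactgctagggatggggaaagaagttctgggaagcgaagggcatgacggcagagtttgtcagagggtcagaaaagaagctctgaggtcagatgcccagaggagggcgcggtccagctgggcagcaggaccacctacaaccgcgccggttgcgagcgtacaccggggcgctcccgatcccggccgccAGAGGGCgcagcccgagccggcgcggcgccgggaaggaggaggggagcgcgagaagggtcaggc
Gm15411: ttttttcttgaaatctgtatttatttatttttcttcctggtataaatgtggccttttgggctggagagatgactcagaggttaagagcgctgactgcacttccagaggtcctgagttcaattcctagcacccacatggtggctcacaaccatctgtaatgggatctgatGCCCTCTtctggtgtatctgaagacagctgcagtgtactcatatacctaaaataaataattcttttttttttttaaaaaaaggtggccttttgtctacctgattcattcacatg
Mtus2: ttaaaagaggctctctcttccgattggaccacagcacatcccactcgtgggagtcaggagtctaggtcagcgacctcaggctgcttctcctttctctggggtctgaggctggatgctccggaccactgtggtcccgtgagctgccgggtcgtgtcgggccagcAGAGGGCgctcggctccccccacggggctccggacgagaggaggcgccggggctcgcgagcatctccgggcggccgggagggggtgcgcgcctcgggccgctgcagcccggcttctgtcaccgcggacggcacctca

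The B3glct window carries the word at bases 237 to 243, inside the part covered by the peak. The Gm15411 peak carries it at bases 170 to 176. The lower Mtus2 window carries it at bases 164 to 170 with no peak in the window, where the nearest Adnp peak lay 5.76 kb away. The upper Mtus2 window also carries the word with no peak in the window, and its nearest Adnp peak lay 2.85 kb away. The Fry window touched no peak and carries the word on neither strand. Searched on both strands, the word stood in 48 of the 320 windows that touch an Adnp peak, in 8.26% of the other 32531 and in 10 of the 57 windows of the interval. Since the word was chosen after the sequences were seen, the B3glct and Gm15411 windows are among the 48 and the 10 by construction. In the Gm15411 peak the word opens the run GCCCTCTTCTGG, 12 bases long. This run stood in 17 (5.31%) of the windows that touch an Adnp peak and in 64 (0.197%) of the others. The run was taken from the Gm15411 peak, so its window is among the 17 by construction. The letters around it read as a mouse B2 element, a tRNA-derived SINE, by general knowledge of that family; no repeat annotation was used here. A match to these letters is a description of the windows and does not show where Adnp is bound.

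Fry (gene ID 320365) spans 150118618 to 150497753, a length of 379 kb, and held 22 Adnp peaks, or 5.80 per 100 kb (95% exact Poisson interval 3.64 to 8.79). Among all protein-coding genes it ranked 2 by this count, and it was first among those of chromosome 5. The peaks ran through most of the gene, from 27.6 kb to 353 kb above its lower end. The promoter table lists 1 start for Fry, at 150259930, which is 141 kb inside the annotated span; 9 peaks lay below that start and 13 above it. The nearest peak to the listed start, at 150255067 to 150255410, ended 4.27 kb below the promoter window and had a score of 28.2. Scores are the authors' deposited values; what they measure is not stated, so they serve here only for describing and ordering peaks of the same list.

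Inside Fry the strongest peak by score was at 150366945 to 150367390, with a score of 64.2 and rank 1060 in the whole list. A peak at 150452339 to 150452710 had a score of 52.1. The 4 highest scores, 40.4 to 64.2, all lay above the longest gap, as did the lowest of the 22, 9.03 at 150471782 to 150472040. The widest peak, 834 bp at 150174502 to 150175335, had a score of 38.0. The longest stretch without a peak covered 52.4 kb, from 150289854 to 150342213. On both sides of that gap stood peaks with a score of 10.8. Counted in steps of 50 kb from the lower end, the full steps held 1, 5, 4, 2, 4, 1 and 3 peaks, and no step was empty.

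B3glct (gene ID 381694) spans 149678100 to 149762599, only 84.5 kb, and held 13 Adnp peaks. This is 15.4 per 100 kb (95% exact Poisson interval 8.19 to 26.3), the highest density of the 3 genes. The first peak, at 149678212 to 149678763, began 0.112 kb above the lower end of the gene and covered the listed start at 149678230. It was also the widest of the 13, with 552 bp, and had a score of 20.1. The best-scoring peak, 40.3 at 149702677 to 149703153, was centred 24.8 kb from the lower end, within a run of 7 peaks in 31.0 kb in which no gap between peak edges was over 10 kb.

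The other peaks of B3glct were weaker by score. Only 3 of the 13 reached the median score of the whole list, 21.2, namely the peaks with 40.3, 25.9 and 21.3. The lowest value, 8.28, occurred at 149688731 to 149689012 and again at 149706298 to 149706582. The last 3 peaks, between 149745176 and 149747976, also lie in the lncRNA gene Gm36141, which overlaps the upper end of B3glct. Above them no Adnp peak was listed for 211 kb, up to 149959119, and that was the longest empty stretch between Mtus2 and Fry.

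Mtus2 (gene ID 77521) spans 147957275 to 148316065, a length of 359 kb, and held 17 Adnp peaks, or 4.74 per 100 kb (95% exact Poisson interval 2.76 to 7.59). Its peaks were unevenly spread: 12 were centred in the first 131.5 kb and 5 in the rest. The strongest, at 147979820 to 147980289, had a score of 86.1 and rank 524 in the whole list, above every peak inside Fry and B3glct. Scores of 62.4 at 148079745 to 148080224 and 55.8 at 148017761 to 148018160 followed. The 6 highest scores of the gene, 43.8 to 86.1, all lay in that first part. A stretch of 91.5 kb without a peak, from 148088996 to 148180534, separated both parts. The upper listed start, 148265217, had a peak at 148268113 to 148268495 with a score of 36.3, centred 3.09 kb above it.

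**Figure D1:**
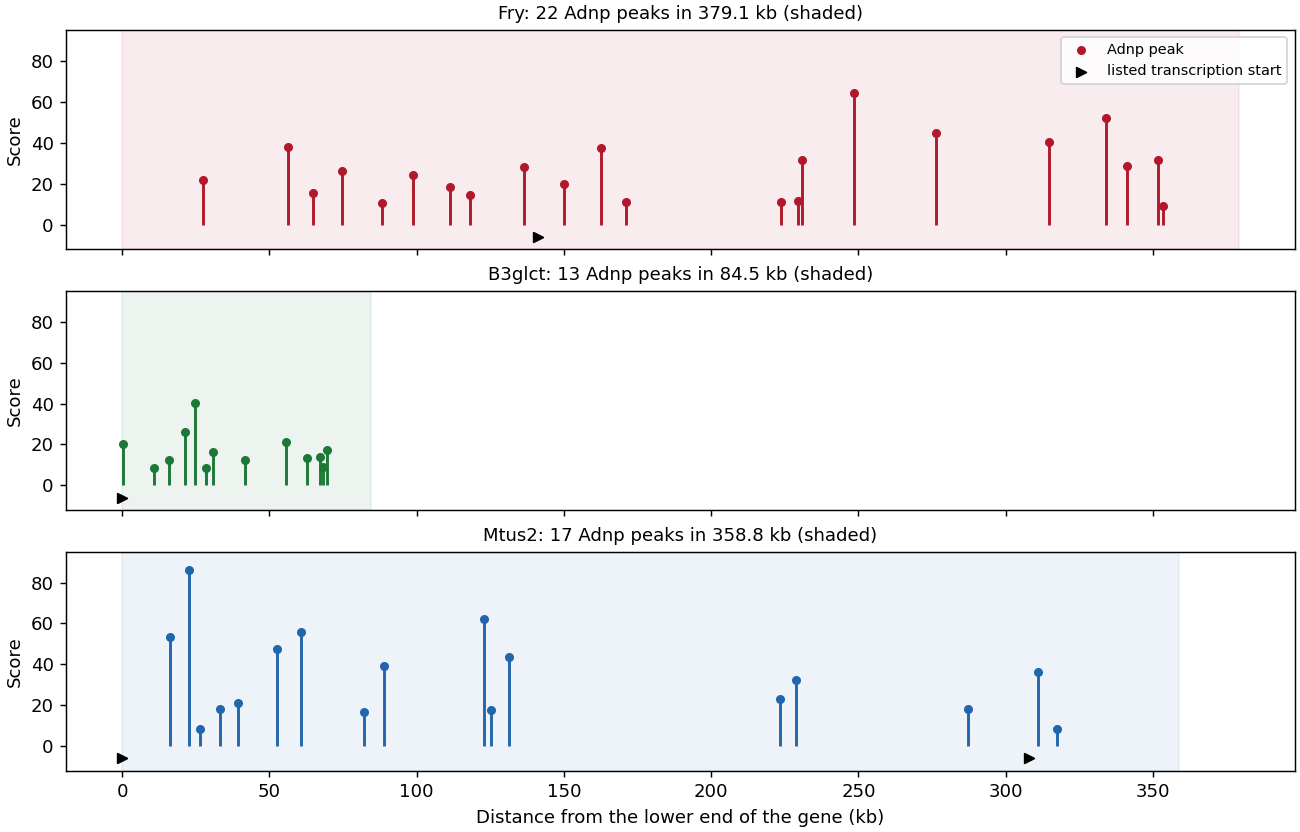
Adnp peaks inside Fry, B3glct and Mtus2. Each line is 1 peak at its distance in kb from the lower end of the gene, with the authors' score as its height, the gene is shaded and black arrowheads mark starts listed in the promoter table. B3glct packs 13 peaks into 84.5 kb with scores up to 40.3, Fry has 22 over 379 kb, and 12 of the 17 peaks of Mtus2 stand before the gap of 91.5 kb.

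Long genes have more room for peaks, so each gene was placed among protein-coding genes of like length, which ran from 304 to 473 kb for Fry, 67.6 to 106 kb for B3glct and 287 to 448 kb for Mtus2. Fry was denser than all 297 genes of like length. Of these, 43.1% held at least 1 Adnp peak; their median was 0, their upper quartile 0.321 and their highest value 4.74 per 100 kb, which is Mtus2. B3glct was denser than all 1442 genes of its length, of which 42.3% held a peak. Their upper quartile was 1.35 per 100 kb and their highest value 13.1 per 100 kb, in Gtf2ird1. Mtus2 was denser than 308 of 309 genes, the exception being Fry; 41.7% of the 309 held a peak. The densities were 19.5, 16.1 and 14.3 times the mean of the like-length genes in Fry, B3glct and Mtus2. Because the genes were chosen for their counts, these places describe the list and support nothing further.

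**Figure D2:**
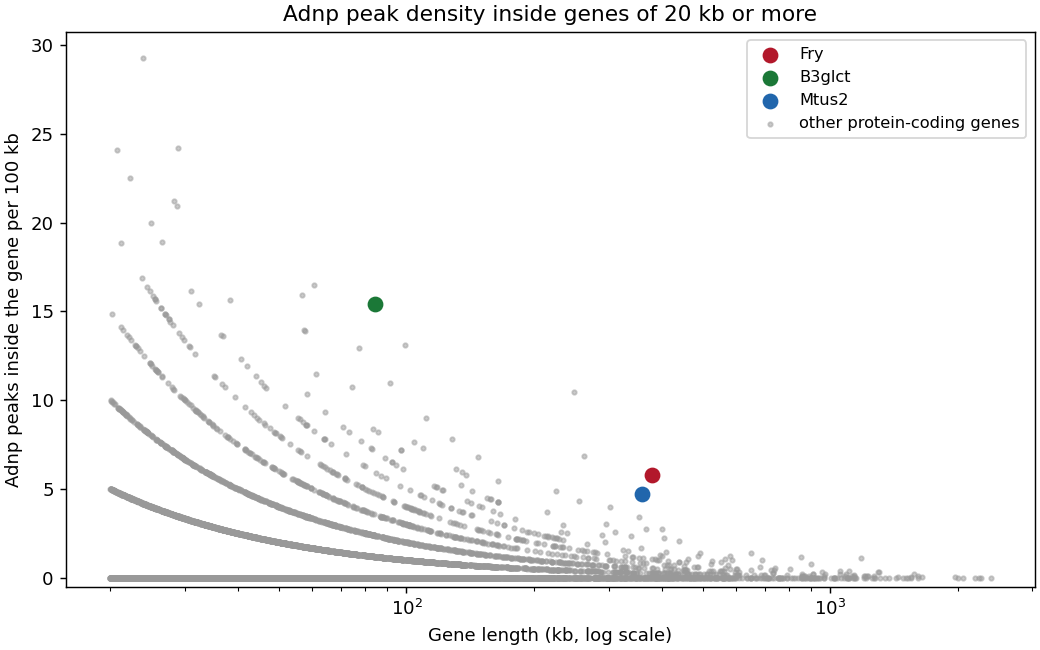
Adnp peaks per 100 kb inside the gene against gene length in kb (log scale) for Fry, B3glct and Mtus2 (large points) and the other protein-coding genes of 20 kb or more (small grey points, 9946 genes in all). The curved rows are genes with the same whole number of peaks. Fry at 5.80 and B3glct at 15.4 per 100 kb lie above all their genes of like length, and Mtus2 at 4.74 above all but Fry.

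The genes of like length with the nearest density, the measure of likeness used here, were Mtus2, Gse1 and Dst for Fry. Gse1 on chromosome 8 held 12 Adnp peaks (3.40 per 100 kb), and Dst, a cytoskeletal linker gene on chromosome 1, held 11 (2.74 per 100 kb). For B3glct they were Gtf2ird1 and Glt1d1, both also on chromosome 5, and Sptbn4 on chromosome 7. Gtf2ird1 held 13 peaks with a median spacing of 5.63 kb, and Glt1d1 held 10 (12.9 per 100 kb) with 4.86 kb. For Mtus2 they were the calcium channel gene Cacna1a on chromosome 8, with 12 peaks (3.98 per 100 kb), then Fry and Gse1. Like Fry, B3glct and Mtus2, Glt1d1 and Sptbn4 held no HP1γ peak, while Cacna1a, Gse1, Dst and Gtf2ird1 each held at least 1. Among all 17 other genes with 10 or more Adnp peaks, 10 held no HP1γ peak and the rest held at least 1. Of all protein-coding genes, 2.86% held at least 1. Among the genes of like length to Fry, B3glct and Mtus2, 12.5%, 7.14% and 14.2% did.

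Spacing differed among the 3 genes. The median distance between the centres of neighbouring peaks was 12.5 kb in Fry (quartiles 8.39 and 18.4 kb), 4.90 kb in B3glct (3.18 and 8.02 kb) and 6.78 kb in Mtus2 (6.17 and 22.1 kb). Distances under 10 kb made up 8 of 21 in Fry, 9 of 12 in B3glct and 10 of 16 in Mtus2. The closest neighbours were 0.823 kb apart, in B3glct, and the farthest 91.9 kb, in Mtus2. The ratio of SD to mean of the spacings was 0.801 in Fry, 0.693 in B3glct and 1.30 in Mtus2. The 17 other genes with 10 or more Adnp peaks had median spacings from 4.66 to 39.4 kb and ratios from 0.664 to 1.33, so the 3 genes lie within both ranges. Of the 3 genes, Mtus2 had the most uneven spacing.

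Peak width and score set B3glct apart from the other members in the plotted values. Median width was 400 bp in Fry (251 to 834 bp), 330 bp in B3glct (251 to 552 bp) and 400 bp in Mtus2 (270 to 480 bp). The 17 other genes with 10 or more peaks had median widths from 361 to 530 bp, so the value of B3glct lay below that range. Median score was 25.3 in Fry, 13.9 in B3glct and 32.2 in Mtus2, against 15.8 to 54.9 over the same 17 genes, and B3glct again lay below. The low end of both ranges was Gtf2ird1, the gene of like length nearest to B3glct in density. The share of peaks at or above the list median was 13 of 22 in Fry, 3 of 13 in B3glct and 11 of 17 in Mtus2. Taken as 1 set, the 52 peaks had a median width of 382.5 bp and a median score of 21.2, while the other 7397 Adnp peaks inside protein-coding genes had 387 bp and 21.2. No test was made between these sets, since the peaks of 1 gene are not replicates.

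**Figure D3:**
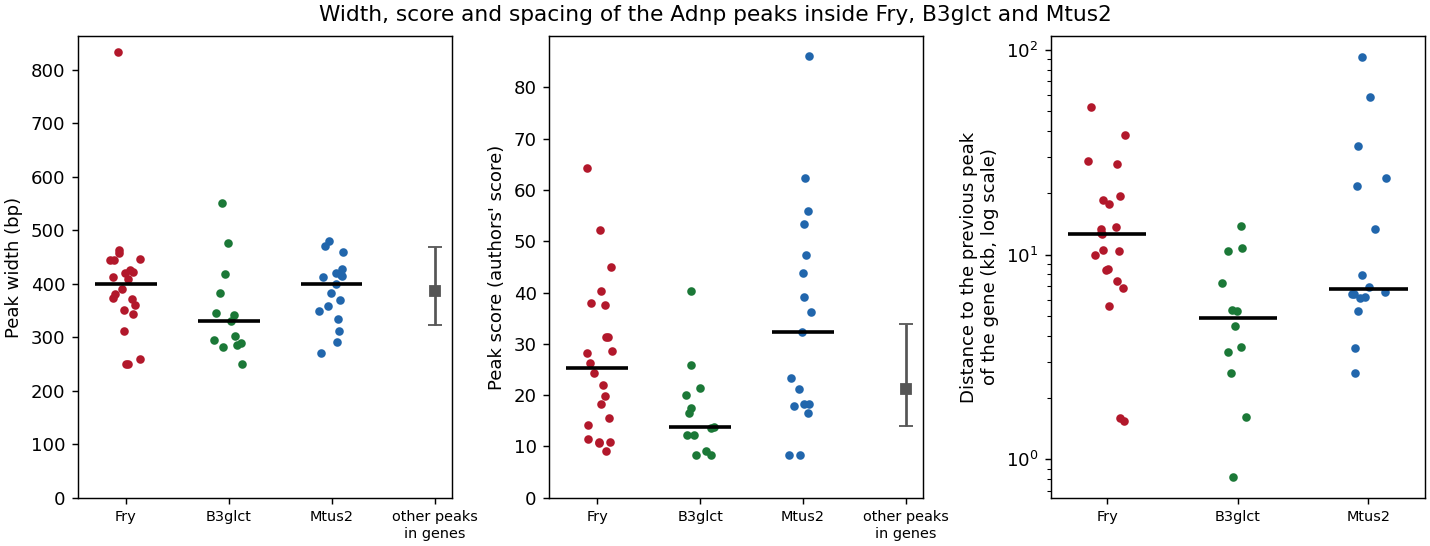
Width in bp, authors' score and distance to the previous peak in kb (log scale) for each Adnp peak inside Fry, B3glct and Mtus2, with black bars at the medians. Grey squares with bars give the median and quartiles of the other 7397 Adnp peaks inside protein-coding genes; B3glct has the lowest medians of the 3 genes in all panels, 330 bp, 13.9 and 4.90 kb.

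The names of the Adnp peaks carry numbers up to 31188 that rise with position on every chromosome, while 15026 peaks (48.2% of the numbers) are listed. Within Fry the listed peaks used 22 of 34 consecutive numbers (64.7%), within B3glct 13 of 17 (76.5%) and within Mtus2 17 of 22 (77.3%). The 17 other genes with 10 or more peaks ran from 52.2% to 90.9%. All 3 values lay within that range. Genes chosen for many listed peaks, with spans that begin and end at a listed peak, have a high share by construction, so nothing is read from the difference to the whole list.

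Adnp peaks were dense outside the 3 genes too. From the lower end of Mtus2 to the upper end of Fry, 2.54 Mb, 113 Adnp peaks were listed, or 4.45 per 100 kb (95% exact Poisson interval 3.67 to 5.35). Chromosome 5 had 0.868 and chromosomes 1 to 19 and X together 0.584 per 100 kb. These 113 peaks include the 52 that chose the genes. The 61 peaks outside the 3 genes gave 3.55 per 100 kb (95% exact Poisson interval 2.72 to 4.56). The 3 genes make up 32.4% of this interval and held 46.0% of its peaks. Another 18 peaks lay only in other protein-coding genes, 12 in genes of other types and 31 in no gene. Of the 15 bins of 100 kb in the interval that overlap none of the 3 genes, 5 held 5 or more Adnp peaks, against 2.67% of 25698 bins over the genome.

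The space between the genes held Adnp peaks as well. Between Mtus2 and B3glct there were 53 peaks (3.89 per 100 kb, 95% exact Poisson interval 2.91 to 5.09) and between B3glct and Fry 8 (2.25 per 100 kb, 0.970 to 4.43). The 500 kb below Mtus2 held 22 peaks (4.40 per 100 kb, 2.76 to 6.66). The 500 kb above Fry held 8 (95% exact Poisson interval 0.691 to 3.15 per 100 kb). In whole bins of 1 Mb, members included, those that start at 147000001 and 148000001 held 45 Adnp peaks each and shared rank 12 among 2561 bins, whose median was 2. The next 2 held 35 and 36.

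**Figure D4:**
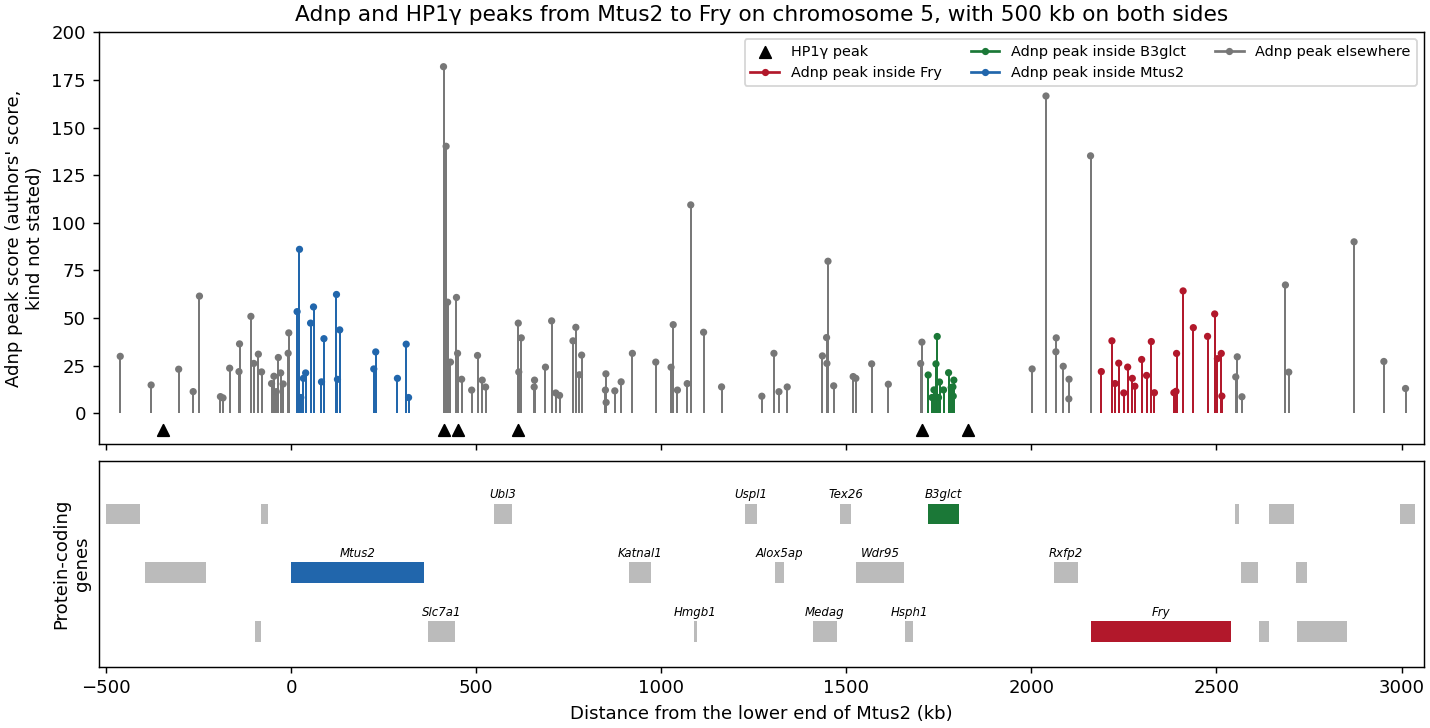
Adnp peaks (lines, height is the authors' score) and HP1γ peaks (black triangles) by distance in kb from the lower end of Mtus2, with protein-coding genes drawn below and 500 kb shown on both sides; genes outside the interval are drawn without names. Peaks inside Fry, B3glct and Mtus2 are coloured; the 5 highest scores between Mtus2 and Fry, from 109 to 182, belong to grey peaks outside the 3 genes.

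The 5 highest scores of the interval lay outside the 3 genes. A peak at 148368737 to 148369593, 52.7 kb above Mtus2, had a score of 182 and another at 148375530 to 148376748 had 140. Both lie inside Slc7a1, which encodes a transporter of cationic amino acids. Peaks with 167 at 149996505 to 149997009 and with 109 at 149036841 to 149037301 lay between genes. A peak with 135 at 150116871 to 150117499 ended 1.12 kb below the lower end of Fry, in the lncRNA gene Gm52797. The highest score inside Fry, B3glct and Mtus2, 86.1, was below all 5 of these.

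The interval holds 11 further protein-coding genes, of which 6 held an Adnp peak inside. Over all protein-coding genes, whose median length was 17.4 kb, 20.7% did. The 11 genes ran from 6.36 kb (Hmgb1) to 127 kb (Wdr95). No share among genes of like length was counted for them. Medag, a gene of fat cell formation, held 5 peaks (7.80 per 100 kb), as did Rxfp2, a receptor gene needed for descent of the testis (7.83 per 100 kb). Slc7a1 held 4, Wdr95 held 2, and Katnal1, a gene of a microtubule-severing enzyme, and Alox5ap, a gene of leukotriene synthesis, held 1 each. Ubl3, Hmgb1, Uspl1, Tex26 and Hsph1 held none. Just below Mtus2, Slc46a3 and the proteasome assembly gene Pomp held 1 each and Flt1, a receptor gene for vascular growth factors, held 4. Just above Fry, the oocyte gene Zar1l held 2 in 11.1 kb and N4bp2l1 none.

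No HP1γ peak of the list lay inside Fry, B3glct or Mtus2. Among the genes of like length, 12.5%, 7.14% and 14.2% held at least 1, and 2.86% of all protein-coding genes did, so a gene without an HP1γ peak is common at any of these lengths. The list leaves out HP1γ peaks with the Adnp motif, so these counts say nothing about HP1γ at motif-bearing Adnp peaks. The nearest HP1γ peak to B3glct, at 149661430 to 149661630, lay 16.5 kb below the gene, and another at 149787018 to 149787322 lay 24.4 kb above it. Mtus2 had its nearest 53.1 kb above it and Fry 331 kb below it, and none was listed on the chromosome above Fry.

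The interval held 5 HP1γ peaks, and 4 of them shared bases with an Adnp peak. Of the 2000 HP1γ peaks on chromosomes 1 to 19 and X, 15.2% did. Because all names in the HP1γ list hold AdnpKO, shared bases do not show both proteins at a site in the same cells. The 4 shared HP1γ peaks lay on the Slc7a1 peak with the score of 182 and on 3 Adnp peaks between genes, with scores of 31.5, 47.3 and 37.3. The centres of the 4 pairs were between 0.063 and 0.114 kb apart. The fifth, above B3glct, was 39.4 kb from the nearest Adnp peak. Adnp peaks cover 1.88% of the bases of the interval and 0.251% of chromosomes 1 to 19 and X, and the part that this density has in the shared peaks was not tested. Of the 113 Adnp peaks, 4 were shared, against 1.95% of the 15009 on chromosomes 1 to 19 and X.

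Listed genes of the pathway or family of each member were looked up for Adnp peaks inside them. The lists were chosen with earlier results of these data known, so their shares are a description and were not tested. Of 14 NDR and Hippo kinase pathway genes around Fry, 8 held at least 1 (57.1%), against 20.7% of all protein-coding genes. Among the genes of like length to each listed gene, the share with a peak had a median of 37.0% over the list. The list had a median length of 55.2 kb and a median density of 1.47 per 100 kb. Fryl, the paralogue of Fry, held 3 in 237 kb (1.27 per 100 kb) and was denser than 89.5% of genes of its length. Stk38, which encodes the NDR kinase NDR1, held 2 (5.39 per 100 kb). Lats2, Nf2, Yap1 and Wwtr1 held 2 each, and Mob1b and Mob2 held 1 each. Stk38l, Lats1, Mob1a, Sav1, Stk3 and Stk4 held none.

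Of 14 genes of O-fucose glycosylation and its thrombospondin repeat substrates around B3glct, 2 (14.3%) held an Adnp peak, against 20.7% of all protein-coding genes. Among the genes of like length to each listed gene, that share had a median of 27.0% over the list. These were Mfng, a glycosyltransferase that extends O-fucose on Notch, and Adamts20, a secreted protease, with 1 each. Pofut2, which adds the fucose that B3glct extends, held none, nor did Pofut1, Lfng, Rfng, Thbs1, Thbs2 or Adamts9. The median length of this list was 29.1 kb, against 55.2 kb for the first list.

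Of 10 genes of microtubule tips and the Mtus family, 5 held an Adnp peak, against 20.7% of all protein-coding genes and a median of 41.1% among the genes of like length to each. Mtus1, the paralogue of Mtus2, held 3 in 143 kb (2.10 per 100 kb), denser than 90.8% of genes of its length. Kif2c, a microtubule-depolymerising kinesin, held 3 in 23.0 kb (13.0 per 100 kb), denser than 98.8% of genes of its length. Clasp1 and Clasp2, which stabilise microtubules, held 3 each and Mapre3 held 1. Clip1, Kif2a, Mapre1, Mapre2 and Slain2 held none. No gene of the 3 lists held an HP1γ peak, and 2.86% of all protein-coding genes did. The most Adnp peaks in any listed gene was 3.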

How the data were processed

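ChIP-seq of tagged proteins in mouse embryonic stem cells started, per the labels' protocols, from 10000000 crosslinked cells and chromatin sonicated to 300 bp on average. Per the submitters' processing notes, MACS2, Bowtie 1.0.0, STAR 2.5.0a, edgeR and bcl2fastq 1.17 were used on mm10 (GRCm38); which tool made which file, and with which settings or filters, is not stated there. The authors deposited 2 peak lists, each pooled over replicates, with positions, read as BED, and a score per peak, which is 0 throughout for HP1γ. Positions were converted to count from 1. A peak was inside a gene if they shared at least 1 bp. Peaks of segments between genes and of bins were placed by their centres. Genes came from RefSeq GRCm38.p6 (chromosomes 1 to 19 and X, starts from 3 Mb). Counting was tested on simulated data. Peaks per 100 kb have exact Poisson intervals; no test was made, since members and gene lists were chosen with earlier results of these data known, and there are no replicates of a list. Named genes were the members, protein-coding genes of the interval and up to 3 neighbours on each side, the 3 nearest in density and 3 lists; not every neighbour is reported here. Alternatives changed the overlap, joining, score, file order, lengths, gene types and chromosomes. Python 3.11.15, NumPy 2.4.6, pandas 2.3.3, SciPy 1.17.1 and matplotlib 3.10.9 were used.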

Additional observations from a re-analysis of the deposited data

How the results depend on the processing

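Over 67 alternatives to 20 values, 57 stayed close to the main value and 10 moved. Close meant a count or density within 1.5 times, or a rank within its 95% binomial interval. For a median width or spacing it meant within an interval of the median from ordered values. No separate check for a reversal was made. Most moves came from keeping only Adnp peaks at or above the median score. That setting keeps 50.2% of the whole list, so lower counts and wider spacings are in part built in. Fry then held 13 peaks with a median spacing of 25.1 kb, Mtus2 held 11, and B3glct held 3 with a spacing of 17.0 kb; the spacing in Mtus2 was 14.98 kb, inside that interval. B3glct was then denser than 98.1% of genes of like length, and the stretch between Mtus2 and B3glct had 2.13 peaks per 100 kb. Joining peaks within 5 kb left 7 regions in B3glct. Against genes of chromosome 5 alone, Mtus2 was denser than 95.7% of 23 genes, which are fewer genes. Widening B3glct by 50 kb took in 2 HP1γ peaks. No paired analysis was possible because each list is pooled over replicates and no test was made. Leaving out a replicate was not possible for the same reason. Depth is unknown, so a gene with no listed peak may have had too few reads for a call.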

Other observations

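Under 1 of the Adnp peaks between Mtus2 and B3glct lies a tRNA gene. The peak at 149228879 to 149229366 covers n-TNgtt14 (149229001 to 149229074) and has a score of 8.96. The 5 genes of type pseudogene from the lower end of Mtus2 to the upper end of Fry, Gm10167, Gm29815, Gm5566, Gm21048 and Gm18753, shared no base with an Adnp peak, nor did the transcribed pseudogene Gm8615 and the snoRNA gene LOC115490296. These genes are short and Adnp peaks cover 1.88% of the bases of the interval. The share over all genes of these types was not counted, so nothing is read from their lack of peaks. Of the 39 lncRNA genes of the same interval, 10 held at least 1 Adnp peak, and 9.03% of all 12609 lncRNA genes did. Gm36141 is among the 10, and its 3 peaks are also peaks of B3glct. The interval has 4.45 Adnp peaks per 100 kb, against 0.584 over chromosomes 1 to 19 and X. Lengths were not matched, so nothing is read from the difference.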
